A study of Mus musculus with 9 samples.

Results

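The 39 genes described here encode ephrins, Eph receptors, Slits, Robo receptors, netrins, netrin receptors, repulsive guidance molecules and reelin. The rule for a gene goes by symbol and uses no measured value, though the families were picked with earlier results of these data known: a gene entered when its Ensembl identifier carried an Epha, Ephb, Efna, Efnb, Slit, Robo, Ntn, Ntng or Unc5 symbol, or was Neo1, Rgma, Rgmb or Reln. Of 44 symbols of the annotation that fit this choice, 39 were among the 20655 genes of the tables, and the other 5 (Dcc, Ntn3, Epha6, Epha8 and Epha10) were not analysed here. The cells came from white fat of the inguinal and axillary depots of C57BL/6 mice aged 12 days, with males and females mixed, and were separated by flow cytometry after digestion with collagenase and dispase. The 3 sorted populations were sequenced in bulk, each as 3 libraries: DPP4+ cells (DPP4 is a surface peptidase), ICAM1+ cells (ICAM1 is an adhesion molecule) and CD142+ cells (CD142 is tissue factor, the product of F3). All mice were wild type and received no treatment, and no label ties a library to an animal, so the p-values below measure a spread between libraries that may be technical.

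These genes are best known from the developing nervous system, where secreted or membrane-bound cues steer axons and migrating cells by attraction or repulsion. Ephrins sit on the cell surface and bind Eph receptor tyrosine kinases on a neighbouring cell, with signals passing into both cells. Slits are secreted ligands of Robo receptors, netrins signal through DCC, neogenin and UNC5 receptors, and reelin binds lipoprotein receptors. Outside the brain the same molecules are used by vessels and mesenchyme, and each population of fat stroma can carry both the cue and its receptor.

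The promoters of 5 genes with contrasting patterns are printed first, since the values below turn on these genes: Ephb2 and Unc5b were highest in CD142+ cells, Efna5 and Efnb2 in DPP4+ cells, and Reln in ICAM1+ cells. Each line holds the 200 bases before the RefSeq start of the gene in build GRCm38.p6, read 5′ to 3′ on the gene's own strand, which is the minus strand for all 5. Capitals mark matches to 4 short motifs, searched on both strands. The E-box, bound by helix-loop-helix factors, was searched as CANNTG. The GC box, bound by Sp1 and its relatives, was searched as GGGCGG. The TATA box of the core promoter was searched as TATAAA. The AP-1 motif, bound by Fos and Jun proteins, was searched as TGANTCA, and no printed matches of different motifs overlap. The windows lie at chr4:136836013-136836212 for Ephb2, chr10:60831582-60831781 for Unc5b, chr17:62881318-62881517 for Efna5, chr8:8661243-8661442 for Efnb2 and chr5:22344706-22344905 for Reln.
Ephb2: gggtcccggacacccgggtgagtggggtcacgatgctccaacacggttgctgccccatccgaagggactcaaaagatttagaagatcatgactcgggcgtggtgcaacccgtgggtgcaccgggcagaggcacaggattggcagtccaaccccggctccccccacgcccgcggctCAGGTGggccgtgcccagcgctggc
Unc5b: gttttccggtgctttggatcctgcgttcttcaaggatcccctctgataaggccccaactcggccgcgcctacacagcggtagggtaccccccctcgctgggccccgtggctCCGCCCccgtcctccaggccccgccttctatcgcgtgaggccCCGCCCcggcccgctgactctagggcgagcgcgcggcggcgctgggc
Efna5: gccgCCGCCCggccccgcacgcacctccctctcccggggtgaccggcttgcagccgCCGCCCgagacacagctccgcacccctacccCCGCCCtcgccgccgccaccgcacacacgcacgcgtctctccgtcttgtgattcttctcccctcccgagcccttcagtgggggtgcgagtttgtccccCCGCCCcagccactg
Efnb2: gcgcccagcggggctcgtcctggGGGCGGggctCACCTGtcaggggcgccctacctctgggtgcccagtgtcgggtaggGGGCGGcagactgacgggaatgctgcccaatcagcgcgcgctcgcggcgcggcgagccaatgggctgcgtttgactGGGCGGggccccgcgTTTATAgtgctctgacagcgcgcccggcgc
Reln: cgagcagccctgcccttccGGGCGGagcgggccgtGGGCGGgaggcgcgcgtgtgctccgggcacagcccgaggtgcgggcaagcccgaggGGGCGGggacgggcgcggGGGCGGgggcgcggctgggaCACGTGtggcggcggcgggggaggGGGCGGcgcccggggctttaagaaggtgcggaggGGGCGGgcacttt
All 5 windows were rich in CpG dinucleotides, with 15 in Ephb2, 22 in Unc5b, 23 in Efna5, 24 in Efnb2 and 29 in Reln, against a median of 5 over the same window of 32851 RefSeq starts. Their GC content ran from 67% in Ephb2 to 81% in Reln, against a median of 53%. GC boxes were found in Unc5b (2), Efna5 (4), Efnb2 (3) and Reln (6), and 31.0% of all windows held at least 1. An E-box was found once each in Ephb2, Efnb2 and Reln, against 58.2% of all windows. Of the 5, Efnb2 was the one with a TATA box (9.96% of all windows), and no window held the AP-1 motif (5.48% of all windows). Ephb2, highest in CD142+ cells, and Efnb2, highest in DPP4+ cells, each held an E-box, so an E-box did not mark either pattern alone. The 5 genes were chosen by pattern and are too few to relate any count of letters to it. These matches describe the letters of the windows and were not tested as binding sites.

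Of the 39 genes, 21 differed between at least 1 pair of populations at an adjusted p below 0.05 in the deposited DESeq2 Wald test. The other 18 were called in none, and of these Ntn5 and Robo3 had no adjusted p in any comparison. The share of all genes called in at least 1 comparison was not computed, so shares are given by comparison. In ICAM1+ against DPP4+ cells, 11 of the 37 genes with an adjusted p were higher, beside 12.4% of all genes tested, and 10 were lower, beside 12.0%. In CD142+ against DPP4+ cells, 8 of 36 were higher, beside 10.1% of all genes, and 9 were lower, beside 8.91%. In ICAM1+ against CD142+ cells, 3 of 34 were higher, beside 3.77% of all genes, and 10 were lower, beside 5.28%. The 3 comparisons share libraries and are not independent of each other. In bulk RNA, fewer cells of a type and less RNA per cell cannot be told apart, and this holds for every difference below.

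Genes were called in both directions in every comparison. In ICAM1+ against CD142+ cells more were lower (10, beside 5.28% of all genes) than higher (3, beside 3.77%). The median log2 fold change of the members was 0.47 in ICAM1+ against DPP4+ cells (0.04 over all genes), 0.01 in CD142+ against DPP4+ cells (0.00) and 0.07 in ICAM1+ against CD142+ cells (0.02). Taken without sign, the median change was 1.004, 0.939 and 0.713, beside 0.488, 0.402 and 0.319 over all genes. At a mean of 100 normalised counts or more, which 7952 genes and 19 members reached, the unsigned medians of the members were 1.27, 1.49 and 0.48, beside 0.31, 0.24 and 0.18. Slit3, Ntn1 and Neo1 were the most abundant members, with mean counts above those of 98.5%, 98.4% and 95.6% of all genes.

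**Figure D1:**
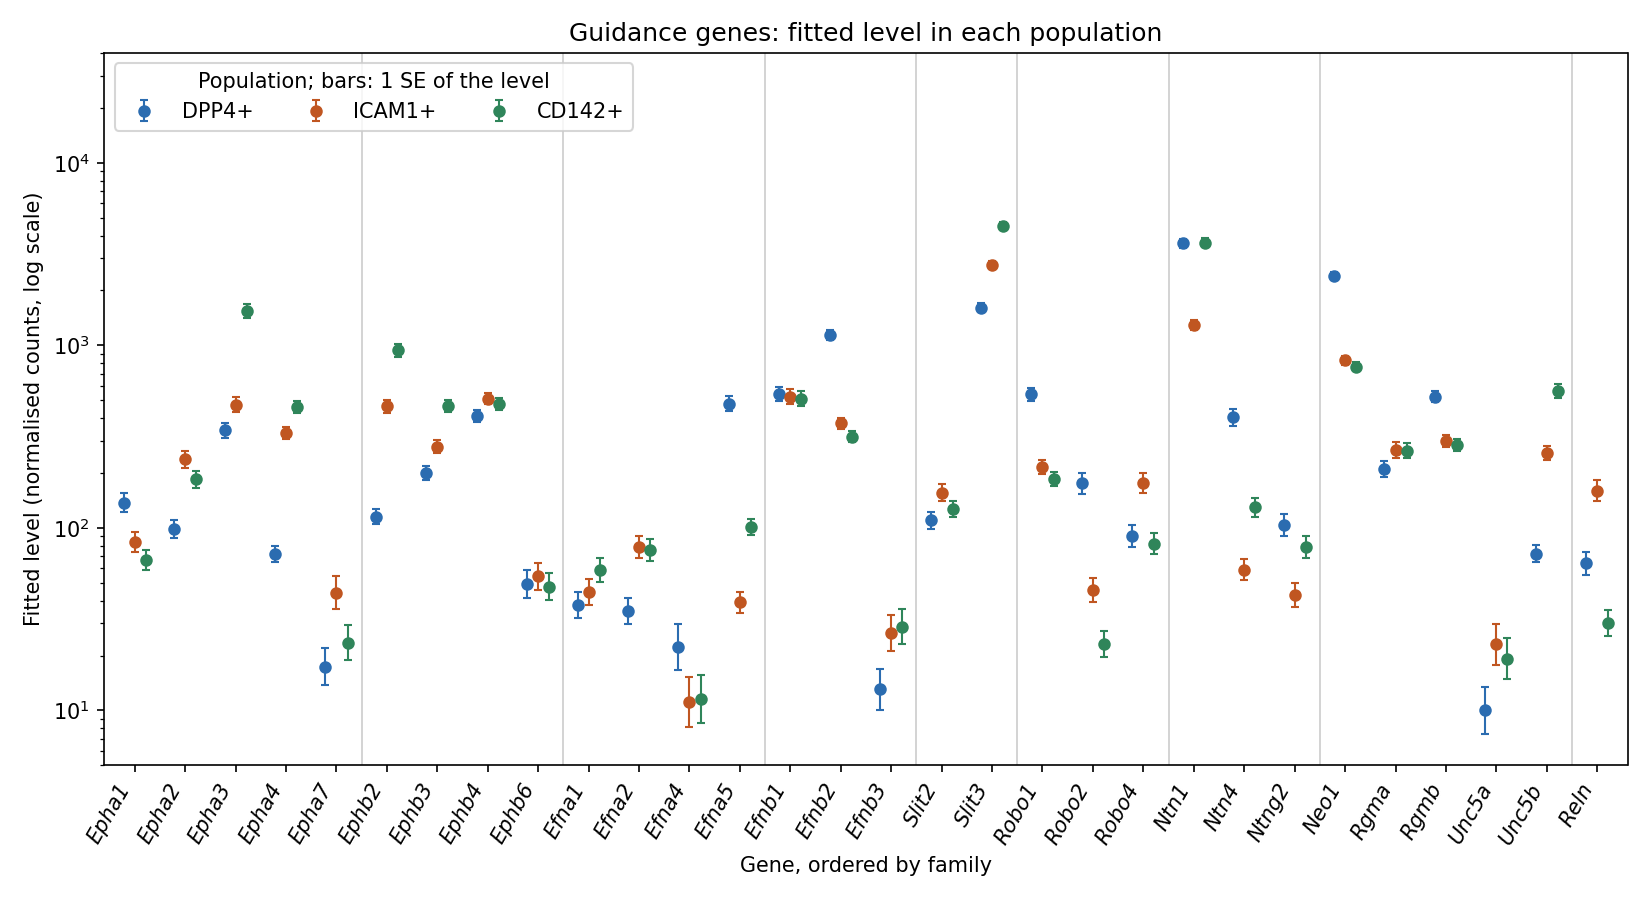
Fitted level of the 30 guidance genes with a mean of at least 10 normalised counts (vertical axis, log scale) by gene and family (horizontal axis), with 1 point for each population and bars of 1 SE of the level. Ephb2 and Unc5b lie lowest in DPP4+ and highest in CD142+ cells, Efna5, Efnb2 and Neo1 lie highest in DPP4+ cells, and Reln lies highest in ICAM1+ cells.

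The plot of levels by gene shows what the tables allow for each population, since they hold no value for a single library. A level is the fitted mean of the 3 libraries in normalised counts, computed from the deposited mean over all 9 libraries and the deposited fold changes, with an SE on the log2 scale split from the deposited errors, which was 0.08 to 0.34 over the 21 called members. A fold change is given as log2 with its SE, and positive values mean higher in the population named first. Over the 26 members with a mean of at least 30, the spread between libraries implied by these errors was 8.99% to 26.5% of the level, and DESeq2 shares this estimate between genes and populations.

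Among the A-type ephrins, which hang on the membrane by a lipid anchor and bind chiefly EphA receptors, Efna5 had the widest range. Efna5 (ENSMUSG00000048915.12, chr17:62604184-62881317, minus strand) stood at 481 normalised counts in DPP4+, 39.1 in ICAM1+ and 102 in CD142+ cells. DPP4+ cells were high, CD142+ cells intermediate and ICAM1+ cells low, and each step passed the test. Its log2 fold change was -3.62 ± 0.23 in ICAM1+ against DPP4+ cells, which is 12.3-fold lower (adjusted p = 1.38e-54). Against DPP4+ cells, CD142+ cells were lower by a log2 fold change of -2.24 ± 0.20 (adjusted p = 8.14e-28). ICAM1+ cells were also below CD142+ cells, at -1.38 ± 0.24 (adjusted p = 4.22e-07).

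Efna2 was lowest in DPP4+ cells, where its level was far below the 481 normalised counts of Efna5. In ICAM1+ cells Efna2 was above Efna5, which stood at 39.1 there. Efna2 (ENSMUSG00000003070.6, chr10:80179482-80190010, plus strand) stood at 35.1 normalised counts in DPP4+, 78.5 in ICAM1+ and 75.8 in CD142+ cells. Both other populations were above DPP4+ cells, with log2 fold changes of 1.16 ± 0.30 in ICAM1+ cells (adjusted p = 9.43e-04) and 1.11 ± 0.30 in CD142+ cells (adjusted p = 0.00195). ICAM1+ and CD142+ cells were not separated for Efna2, with a difference of 0.05 ± 0.28 and a 95% interval of -0.50 to 0.60. Efna1, a ligand of EphA2, stood at 37.8 normalised counts in DPP4+, 44.6 in ICAM1+ and 59.1 in CD142+ cells, and none of its 3 comparisons passed. Efna4 stood at 22.3 normalised counts in DPP4+, 11.1 in ICAM1+ and 11.5 in CD142+ cells, again with no call, and its interval in ICAM1+ against DPP4+ cells ran from -2.20 to 0.20. Efna1, Efna3 and Efna4 lie side by side on chromosome 3, and 10.5% of the exon bases of Efna4 and 14.1% of those of Efna3 are shared with a gene on the other strand, and without a strand setting, which the sources used here do not give, such reads cannot be told apart.

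The B-type ephrins span the membrane and signal into their own cell as well. Efnb2 (ENSMUSG00000001300.16, chr8:8617434-8661242, minus strand), the partner of EphB4 and a mark of arterial endothelium, stood at 1139 normalised counts in DPP4+, 374 in ICAM1+ and 317 in CD142+ cells. Its log2 fold change was -1.61 ± 0.14 in ICAM1+ against DPP4+ cells, which is 3.05-fold lower (adjusted p = 9.66e-31). CD142+ cells gave -1.85 ± 0.13, or 3.60-fold lower (adjusted p = 1.60e-40). Only DPP4+ cells stood apart for Efnb2, since ICAM1+ against CD142+ cells gave 0.24 ± 0.14 with an interval of -0.04 to 0.51.

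Efnb1, an X-linked ephrin, was close to level across the sort at 541 normalised counts in DPP4+, 524 in ICAM1+ and 511 in CD142+ cells. Its log2 fold changes had intervals of -0.42 to 0.32, -0.45 to 0.29 and -0.33 to 0.41 in the 3 comparisons, each spanning 0. Efnb3 stood at 13.0 normalised counts in DPP4+, 26.5 in ICAM1+ and 28.8 in CD142+ cells, and none of its comparisons passed (adjusted p = 0.127 in ICAM1+ against DPP4+ cells and 0.0918 in CD142+ against DPP4+ cells). Of the 8 ephrin genes, then, Efna5 and Efnb2 were highest in DPP4+ cells, Efna2 was lowest there, and Efna1, Efna3, Efna4, Efnb1 and Efnb3 gave no call.

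The EphA receptors were mostly lowest in DPP4+ cells. Epha4 (ENSMUSG00000026235.14, chr1:77367185-77515088, minus strand), which binds ephrins of both types, stood at 72.1 normalised counts in DPP4+, 331 in ICAM1+ and 461 in CD142+ cells. It was 4.59-fold higher in ICAM1+ than in DPP4+ cells, a log2 fold change of 2.20 ± 0.18 (adjusted p = 4.00e-32). In CD142+ against DPP4+ cells the log2 fold change was 2.68 ± 0.18, or 6.39-fold (adjusted p = 1.06e-48). The step between ICAM1+ and CD142+ cells was smaller and passed too, at -0.48 ± 0.15 (adjusted p = 0.0260).

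Epha3 (ENSMUSG00000052504.6, chr16:63543534-63864175, minus strand), a receptor of ephrin-A5, was set apart by CD142+ cells, with 343 normalised counts in DPP4+, 475 in ICAM1+ and 1549 in CD142+ cells. CD142+ cells exceeded DPP4+ cells by a log2 fold change of 2.18 ± 0.18, or 4.52-fold (adjusted p = 2.39e-31). ICAM1+ cells were lower than CD142+ cells by -1.71 ± 0.18 (adjusted p = 5.98e-19). The step from DPP4+ to ICAM1+ cells was small and close to the threshold, at 0.47 ± 0.18 (adjusted p = 0.0450), and it was lost when p-values were adjusted over every gene (adjusted p = 0.0520).

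Epha2 (ENSMUSG00000006445.3, chr4:141301240-141329384, plus strand), the main receptor of ephrin-A1, stood at 99.0 normalised counts in DPP4+, 238 in ICAM1+ and 185 in CD142+ cells. Both other populations exceeded DPP4+ cells, with log2 fold changes of 1.27 ± 0.23 in ICAM1+ cells (adjusted p = 3.53e-07) and 0.90 ± 0.23 in CD142+ cells (adjusted p = 7.20e-04). Epha7 was low, at 17.4 normalised counts in DPP4+, 44.1 in ICAM1+ and 23.5 in CD142+ cells, and was higher in ICAM1+ than in DPP4+ cells (1.34 ± 0.46, adjusted p = 0.0172). Epha1 ran the other way. It stood at 138 normalised counts in DPP4+, 83.9 in ICAM1+ and 66.9 in CD142+ cells, and was lower than in DPP4+ cells in both ICAM1+ cells (-0.71 ± 0.25, adjusted p = 0.0210) and CD142+ cells (-1.04 ± 0.25, adjusted p = 3.50e-04). Of its exon bases, 6.01% overlap Zyx on the other strand. For Epha1, Epha2 and Epha7, ICAM1+ against CD142+ cells did not pass the threshold. The difference of Epha7 there was 0.91 ± 0.44 (adjusted p = 0.235), with a 95% interval of 0.05 to 1.77, so this missed call does not show equal levels.

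Ephb2 had the largest log2 fold change of the 39 genes in CD142+ against DPP4+ cells. Ephb2 (ENSMUSG00000028664.14, chr4:136647539-136835988, minus strand), a receptor of B-type ephrins, stood at 115 normalised counts in DPP4+, 463 in ICAM1+ and 939.7 in CD142+ cells. The 3 populations were all separated. The log2 fold change was 2.01 ± 0.18 in ICAM1+ against DPP4+ cells, or 4.03-fold (adjusted p = 6.93e-27). It was 3.03 ± 0.18 in CD142+ against DPP4+ cells, or 8.17-fold (adjusted p = 2.55e-62). ICAM1+ cells lay below CD142+ cells by -1.02 ± 0.16 (adjusted p = 3.84e-08).

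Ephb3 (ENSMUSG00000005958.14, chr16:21204755-21223305, plus strand), which shares ligands with Ephb2, had the same order over a shorter range, at 200.03 normalised counts in DPP4+, 279 in ICAM1+ and 465 in CD142+ cells. Its log2 fold changes were 0.48 ± 0.16 in ICAM1+ against DPP4+ cells (adjusted p = 0.0178), 1.22 ± 0.16 in CD142+ against DPP4+ cells (adjusted p = 1.10e-12) and -0.74 ± 0.16 in ICAM1+ against CD142+ cells (adjusted p = 9.54e-05). Ephb4, the ephrin-B2 receptor of venous endothelium, was nearly level, at 409 normalised counts in DPP4+, 512 in ICAM1+ and 479 in CD142+ cells. Its largest difference, 0.32 ± 0.15 in ICAM1+ against DPP4+ cells, did not pass (adjusted p = 0.117). Ephb6, a receptor without kinase activity, stood at 49.3 normalised counts in DPP4+, 54.4 in ICAM1+ and 47.6 in CD142+ cells and gave no call, with an interval of -0.74 to 0.64 in CD142+ against DPP4+ cells.

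**Figure D2:**
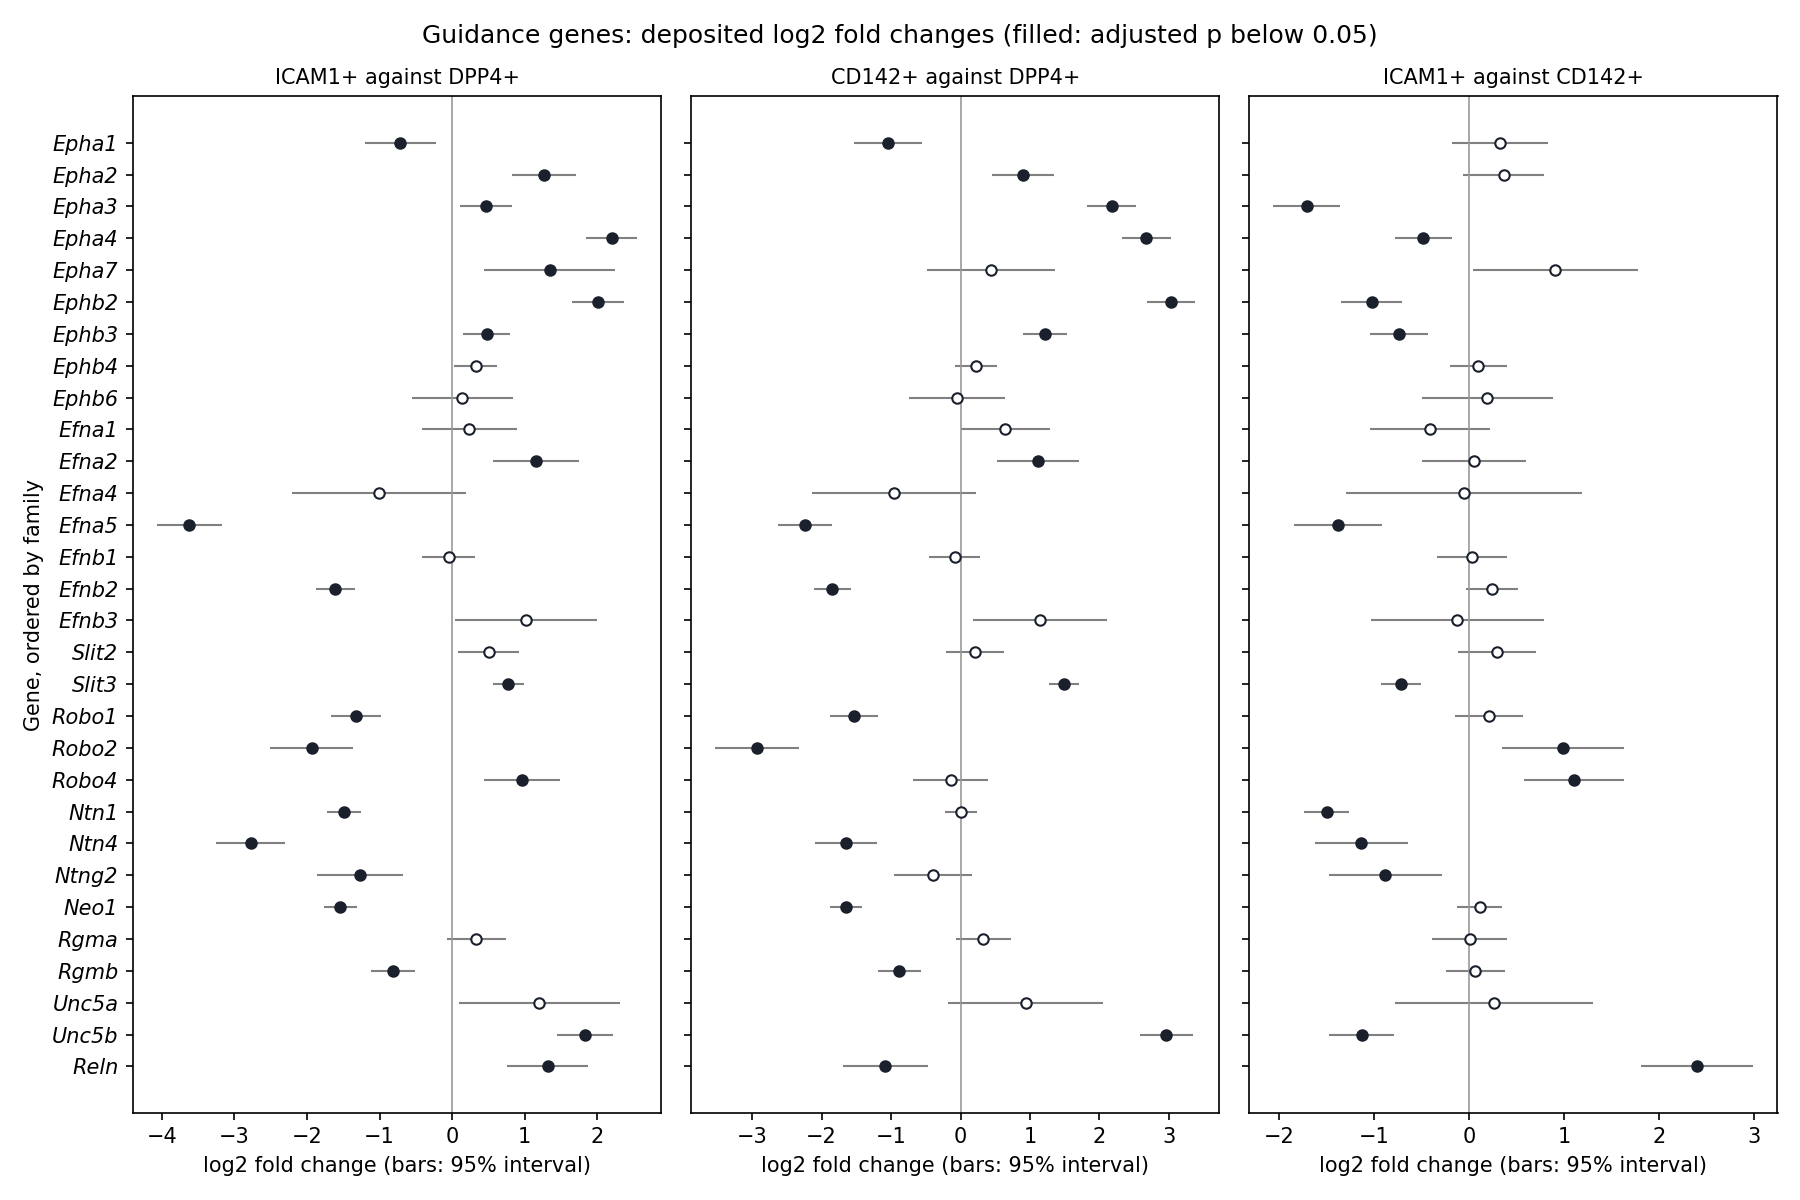
Deposited log2 fold change of each of the 30 guidance genes with a mean of at least 10 (horizontal axis, bars of 95% intervals) in the 3 comparisons, with filled points for an adjusted p below 0.05. In CD142+ against DPP4+ cells the Eph receptors Epha3, Epha4, Ephb2 and Ephb3 lie right of 0, while Efna5, Efnb2, Robo1, Robo2, Neo1, Ntn4 and Rgmb lie left of it.

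The plot of fold changes sets the receptors and ligands of the Eph system side by side. Of the Eph receptor genes, 6 of 11 were higher in ICAM1+ than in DPP4+ cells and 1 was lower, while 1 of the 8 ephrin genes was higher and 2 were lower. In CD142+ against DPP4+ cells, 5 Eph receptor genes were higher and 1 was lower, and among the ephrins 1 was again higher and 2 were lower. Beside the shares of all genes called (12.4% higher and 12.0% lower in the first comparison, 10.1% and 8.91% in the second), the 1 receptor gene lower and the 1 ephrin gene higher lie near the background, and no difference between receptors and ligands was tested. No Eph or ephrin gene was higher in ICAM1+ than in CD142+ cells, and 5 were lower, beside 3.77% and 5.28% of all genes. At the first share, the lack of a higher gene is near the background.

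Beside the members, 16 other genes of Eph and ephrin signalling were listed. Of these, 4 were higher and 4 lower in ICAM1+ against DPP4+ cells, 5 were higher and 2 lower in CD142+ against DPP4+ cells, and 2 were lower in ICAM1+ against CD142+ cells. The shares of all genes called were 12.4% and 12.0%, 10.1% and 8.91%, and 5.28% lower in the last. Vav3, an exchange factor recruited by Eph receptors, had log2 fold changes of 1.93 ± 0.34 and 1.73 ± 0.34 in ICAM1+ and CD142+ against DPP4+ cells (adjusted p = 2.72e-07 and 6.36e-06). The adaptor Nck2 followed it, at 1.03 ± 0.21 and 0.63 ± 0.21 (adjusted p = 5.81e-06 and 0.0152). Anks1, an adaptor that binds Eph receptors, was lower in both, at -1.15 ± 0.16 and -1.21 ± 0.16 (adjusted p = 1.35e-11 and 7.21e-13). So was Adam10, the protease that cuts A-type ephrins from the membrane, at -0.55 ± 0.13 and -0.63 ± 0.13 (adjusted p = 3.41e-04 and 3.39e-05). The exchange factors Ngef and Tiam1 were lower in ICAM1+ than in CD142+ cells, at -1.45 ± 0.37 and -1.03 ± 0.15 (adjusted p = 0.00235 and 1.75e-09).

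Slit3 was the leading Slit in every population. Slit3 (ENSMUSG00000056427.10, chr11:35121224-35708507, plus strand), a secreted Robo ligand, stood at 1611 normalised counts in DPP4+, 2759 in ICAM1+ and 4523 in CD142+ cells, and each population differed from the other two. The log2 fold change was 0.78 ± 0.11 in ICAM1+ against DPP4+ cells (adjusted p = 3.02e-11). CD142+ cells gave 1.49 ± 0.11 against DPP4+ cells, or 2.81-fold (adjusted p = 1.60e-40). ICAM1+ cells were below CD142+ cells at -0.71 ± 0.11 (adjusted p = 3.87e-09). Slit2, its relative with the same receptors, was far lower at 110.2 normalised counts in DPP4+, 156 in ICAM1+ and 127 in CD142+ cells, and no comparison passed, with 0.50 ± 0.21 in ICAM1+ against DPP4+ cells (adjusted p = 0.0717).

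The Slit receptors Robo1 and Robo2 had the reverse order, highest in DPP4+ cells where Slit3 was lowest. They lie close together on chromosome 16, on opposite strands. Robo1 (ENSMUSG00000022883.10, chr16:72308306-73046095, plus strand) stood at 539 normalised counts in DPP4+, 215 in ICAM1+ and 186 in CD142+ cells. Its log2 fold change was -1.32 ± 0.18 in ICAM1+ cells, or 2.502-fold lower than in DPP4+ cells (adjusted p = 1.30e-12). CD142+ cells gave -1.53 ± 0.18, or 2.89-fold lower (adjusted p = 1.06e-16). Robo1 did not separate ICAM1+ from CD142+ cells, with an interval of -0.15 to 0.56.

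Robo2 (ENSMUSG00000052516.17, chr16:73891839-74411825, minus strand) had a wider range, at 176 normalised counts in DPP4+, 46.0 in ICAM1+ and 23.1 in CD142+ cells. CD142+ cells were 7.60-fold below DPP4+ cells, a log2 fold change of -2.93 ± 0.31 (adjusted p = 1.39e-19). ICAM1+ cells were 3.83-fold below DPP4+ cells, at -1.94 ± 0.29 (adjusted p = 5.57e-10), and above CD142+ cells at 0.99 ± 0.33 (adjusted p = 0.0319).

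Robo4, a receptor known chiefly from endothelium, did not follow Robo1 and Robo2. Robo4 (ENSMUSG00000032125.20, chr9:37401897-37415115, plus strand) stood at 90.4 normalised counts in DPP4+, 176 in ICAM1+ and 82.1 in CD142+ cells, so that ICAM1+ cells were high and the other two were not separated (interval -0.68 to 0.40 in CD142+ against DPP4+ cells). It was higher in ICAM1+ than in DPP4+ cells by a log2 fold change of 0.96 ± 0.27 (adjusted p = 0.00205) and than in CD142+ cells by 1.10 ± 0.27 (adjusted p = 8.65e-04). Of 9 endothelial markers, 5 were higher and 1 lower in ICAM1+ than in DPP4+ cells, beside 12.4% and 12.0% of all genes. In ICAM1+ against CD142+ cells 6 were higher, beside 3.77% of all genes. The endothelial cadherin Cdh5, for example, had log2 fold changes of 0.62 ± 0.13 and 0.61 ± 0.13 in those comparisons (adjusted p = 2.75e-05 and 1.10e-04). Kdr, a receptor of vascular growth factor, had 0.79 ± 0.16 and 0.84 ± 0.16 (adjusted p = 1.09e-05 and 7.19e-06). The summed level of the 9 was 5031 normalised counts in DPP4+, 3950 in ICAM1+ and 2614 in CD142+ cells, and its top in DPP4+ cells came from Tek, which stood at 2733 there. None of the 9 was at 0 in any population, the lowest being Emcn at 45.4 in CD142+ cells. The part of endothelial RNA in the Robo4 difference was not tested.

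Among 15 other genes of Slit and Robo signalling, 2 were higher and 2 lower in ICAM1+ against DPP4+ cells, 1 was higher and 3 were lower in CD142+ against DPP4+ cells, and 2 were higher in ICAM1+ against CD142+ cells. In ICAM1+ against DPP4+ cells these counts are near the shares over all genes (12.4% higher and 12.0% lower), and in the others the shares were 10.1% higher and 8.91% lower, and 3.77% higher. Gpc1, a heparan sulphate proteoglycan that binds Slits, was above its DPP4+ level in both other populations, at 2.25 ± 0.21 and 1.60 ± 0.21 (adjusted p = 1.20e-24 and 1.73e-12). Srgap1, a GTPase-activating protein bound by Robo receptors, was lower in both, at -0.81 ± 0.15 and -1.18 ± 0.15 (adjusted p = 6.18e-07 and 4.77e-14).

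Ntn1 was the abundant netrin, and it was ICAM1+ cells that stood apart for it. Ntn1 (ENSMUSG00000020902.12, chr11:68209364-68400823, minus strand), a secreted laminin-related cue, stood at 3622 normalised counts in DPP4+, 1293 in ICAM1+ and 3645 in CD142+ cells. DPP4+ and CD142+ cells were not separated, with a log2 fold change of 0.01 ± 0.12 and a 95% interval of -0.22 to 0.24. ICAM1+ cells were 2.80-fold below DPP4+ cells (-1.49 ± 0.12, adjusted p = 4.51e-33) and 2.82-fold below CD142+ cells (-1.50 ± 0.12, adjusted p = 1.98e-32).

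Ntn4 (ENSMUSG00000020019.4, chr10:93640681-93747207, plus strand), a netrin of basement membranes, separated all 3 populations, at 404 normalised counts in DPP4+, 59.0 in ICAM1+ and 129 in CD142+ cells. It was 6.85-fold lower in ICAM1+ than in DPP4+ cells (-2.78 ± 0.24, adjusted p = 3.50e-28). It was 3.12-fold lower in CD142+ than in DPP4+ cells (-1.64 ± 0.23, adjusted p = 1.44e-11). ICAM1+ cells were below CD142+ cells at -1.13 ± 0.25 (adjusted p = 1.81e-04).

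Ntng2, a membrane-anchored netrin relative that does not bind the netrin receptors, stood at 104 normalised counts in DPP4+, 42.9 in ICAM1+ and 78.9 in CD142+ cells. ICAM1+ cells were lower than DPP4+ cells (-1.27 ± 0.30, adjusted p = 2.23e-04). They were also lower than CD142+ cells (-0.88 ± 0.30, adjusted p = 0.0436), a call lost when p-values were adjusted over every gene (adjusted p = 0.0566). Of the exon bases of Ntng2, 14% are shared with another gene on the same strand, so its reads are uncertain. The 3 called netrin genes thus all had their lowest level in ICAM1+ cells, as Efna5 did.

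The netrin receptors Neo1 and Unc5b moved in opposite directions. Neo1 (ENSMUSG00000032340.8, chr9:58874687-59036441, minus strand), neogenin, which binds both netrins and repulsive guidance molecules, stood at 2402 normalised counts in DPP4+, 827 in ICAM1+ and 765 in CD142+ cells. It was 2.90-fold lower in ICAM1+ than in DPP4+ cells (-1.54 ± 0.12, adjusted p = 1.89e-37). It was 3.14-fold lower in CD142+ than in DPP4+ cells (-1.65 ± 0.12, adjusted p = 3.42e-43). ICAM1+ and CD142+ cells were not separated for Neo1 (interval -0.12 to 0.35).

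Unc5b (ENSMUSG00000020099.8, chr10:60762593-60831581, minus strand), a receptor tied to repulsion by netrins and to vessel branching, stood at 72.4 normalised counts in DPP4+, 257 in ICAM1+ and 563 in CD142+ cells, and every step passed. The log2 fold change was 1.83 ± 0.20 in ICAM1+ against DPP4+ cells, or 3.56-fold (adjusted p = 1.04e-18). It was 2.96 ± 0.19 in CD142+ against DPP4+ cells, or 7.78-fold (adjusted p = 2.48e-50). ICAM1+ cells were below CD142+ cells at -1.13 ± 0.17 (adjusted p = 8.17e-09). Unc5b and Ephb2 therefore shared the order DPP4+, ICAM1+, CD142+, from low to high. Unc5a was near the lower limit of the plotted genes, at 10.01 normalised counts in DPP4+, 23.0 in ICAM1+ and 19.2 in CD142+ cells, and gave no call.

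Rgmb (ENSMUSG00000048027.7, chr17:15803188-15831039, minus strand), a neogenin ligand and co-receptor of bone morphogenetic proteins, stood at 525 normalised counts in DPP4+, 299 in ICAM1+ and 285 in CD142+ cells. Like Neo1 it was lower than in DPP4+ cells in both ICAM1+ cells (-0.81 ± 0.16, adjusted p = 2.62e-06) and CD142+ cells (-0.88 ± 0.15, adjusted p = 2.49e-07). Rgma, its relative, stood at 211 normalised counts in DPP4+, 267 in ICAM1+ and 265 in CD142+ cells and gave no call. The interval of Rgma in ICAM1+ against CD142+ cells was -0.39 to 0.40.

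Among 13 other genes of netrin and RGM signalling in the tables, of 14 listed, 1 was higher and 5 were lower in ICAM1+ against DPP4+ cells, 3 were lower in CD142+ against DPP4+ cells and 2 were lower in ICAM1+ against CD142+ cells. Over all genes 12.4% were higher and 12.0% lower in the first comparison, 8.91% were lower in the second and 5.28% in the third, so the 1 higher gene is near the background. Trio, an exchange factor downstream of netrin receptors, was below its DPP4+ level in both other populations, at -1.06 ± 0.11 and -0.83 ± 0.11 (adjusted p = 3.71e-20 and 1.69e-12). Flrt2, a membrane protein that binds UNC5 receptors, had its lowest level in ICAM1+ cells, at -1.08 ± 0.16 against DPP4+ and -0.90 ± 0.16 against CD142+ cells (adjusted p = 3.72e-10 and 1.13e-06).

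Reln alone among the 21 called members was high in ICAM1+ cells, low in CD142+ cells and in between in DPP4+ cells with all 3 differences past the threshold. Reln (ENSMUSG00000042453.14, chr5:21884454-22344702, minus strand), the large secreted glycoprotein that orders neuronal layers in the cortex and is made outside the brain by lymphatic endothelium, stood at 63.9 normalised counts in DPP4+, 159.6 in ICAM1+ and 30.2 in CD142+ cells. It was 5.29-fold higher in ICAM1+ than in CD142+ cells, a log2 fold change of 2.40 ± 0.30 (adjusted p = 2.45e-13). Against DPP4+ cells, ICAM1+ cells were higher at 1.32 ± 0.28, or 2.496-fold (adjusted p = 3.78e-05). CD142+ cells were lower than DPP4+ cells at -1.08 ± 0.31, or 2.12-fold (adjusted p = 0.00409). The level was modest, with a mean count above that of 59.0% of all genes.

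The lymphatic endothelial markers were also highest in ICAM1+ cells. Of 5, 3 were higher in ICAM1+ than in DPP4+ cells and 2 were higher in ICAM1+ than in CD142+ cells, beside 12.4% and 3.77% of all genes. None passed in CD142+ against DPP4+ cells, where 10.1% of all genes were higher and 8.91% lower, so this is near the background. The summed level of the 5 markers was 116 normalised counts in DPP4+, 235 in ICAM1+ and 112 in CD142+ cells. Prox1, the transcription factor of lymphatic identity, had a log2 fold change of 0.80 ± 0.29 in ICAM1+ against DPP4+ cells (adjusted p = 0.0271). Mmrn1 had 1.49 ± 0.50 (adjusted p = 0.0152). In CD142+ against DPP4+ cells, where Reln was lower, the 5 markers gave -1.08 ± 1.06 (Ccl21a), -0.36 ± 0.44 (Flt4), 0.01 ± 0.53 (Mmrn1), 0.08 ± 0.57 (Lyve1) and 0.09 ± 0.30 (Prox1), with adjusted p from 0.594 to 0.995. None of the 5 was at 0, the lowest being Ccl21a at 2.45 in CD142+ cells. The part of lymphatic endothelium in the Reln differences was not tested.

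**Figure D3:**
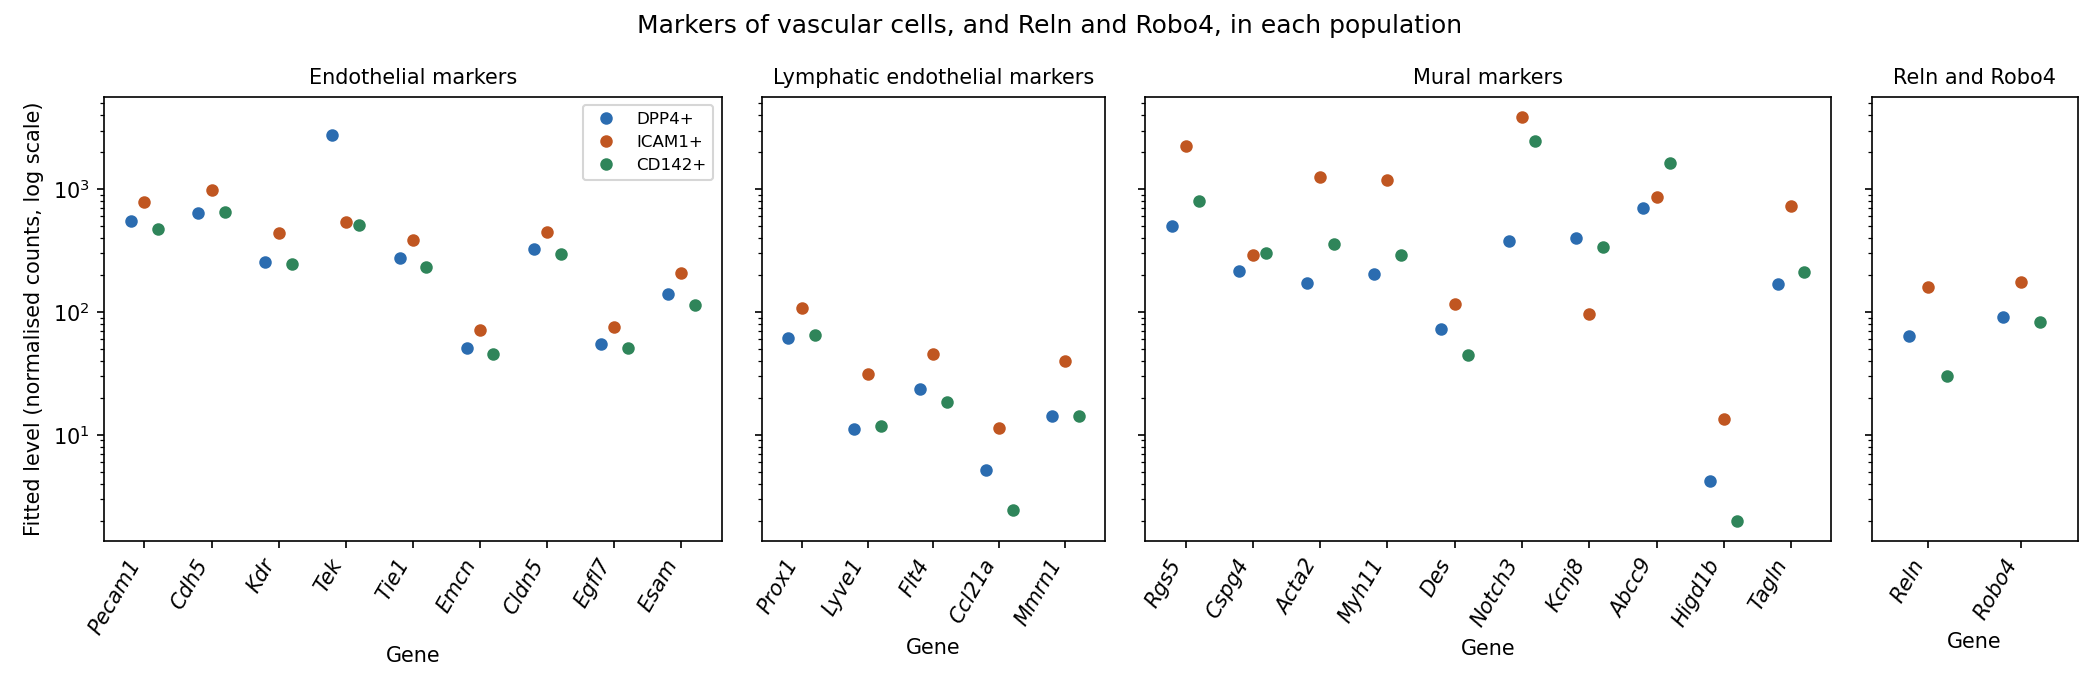
Fitted level (vertical axis, log scale) of endothelial, lymphatic endothelial and mural markers, and of Reln and Robo4, with 1 point for each population. Reln and Robo4 lie highest in ICAM1+ cells, at 160 and 176 normalised counts, as do 8 of the 9 endothelial and all 5 lymphatic markers.

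As the plot of markers shows for mural genes, markers of some other cell types differed between the populations too. Over all genes, 12.4% were called higher and 12.0% lower in ICAM1+ against DPP4+ cells. The shares were 10.1% and 8.91% in CD142+ against DPP4+ cells, and 3.77% and 5.28% in ICAM1+ against CD142+ cells. Of 10 mural markers (pericytes and smooth muscle), 5 were higher and 1 lower in ICAM1+ against DPP4+ cells, 4 were higher in CD142+ against DPP4+ cells, and 6 were higher and 2 lower in ICAM1+ against CD142+ cells, with summed levels of 2810, 10690 and 6439 in DPP4+, ICAM1+ and CD142+ cells. Of 9 Schwann cell markers, 7, 2 and 7 were higher in the same comparisons and none was lower, with summed levels of 1436, 3198 and 1321. Of 7 neuronal markers none passed in any comparison, with summed levels of 142, 86.1 and 132. The 8 immune markers summed to 222, 382 and 271, with 1 higher in CD142+ against DPP4+ and 1 higher in ICAM1+ against CD142+ cells. The 5 mesothelial markers summed to 139, 40.1 and 72.1, with 1 lower in each comparison against DPP4+ cells. Beside the shares above, no neuronal call and single calls among so few immune and mesothelial markers are near the background. The 4 adipocyte markers summed to 11.2, 260 and 86.3, with 3, 2 and 2 higher in the 3 comparisons. None of these markers was at 0, the lowest being Msln, a mesothelial gene, at 0.533 in ICAM1+ cells. Of 7 stromal genes, 1 was higher and 5 were lower in ICAM1+ against DPP4+ cells, 1 was higher and 3 were lower in CD142+ against DPP4+ cells, and 4 were lower in ICAM1+ against CD142+ cells. Pdgfra, Col1a1, Dcn and Lum, the general genes of fat stroma, were abundant in all 3 populations. Dpp4, Icam1 and F3, the genes of the sort, were highest in DPP4+, ICAM1+ and CD142+ cells, though ICAM1+ and CD142+ cells were not separated for Icam1 (adjusted p = 0.631). Like the summed mural level, Epha4, Ephb2, Unc5b and Slit3 were lowest in DPP4+ cells. These genes were highest in CD142+ cells, while the mural sum was highest in ICAM1+ cells. Single mural markers differed in order. Rgs5, Acta2, Myh11, Notch3 and Tagln had the order of the sum. Abcc9 and Cspg4 had that of Epha4, Ephb2, Unc5b and Slit3, lowest in DPP4+ and highest in CD142+ cells. Abcc9 had a log2 fold change of 1.24 ± 0.17 in CD142+ against DPP4+ cells (adjusted p = 2.73e-12). In ICAM1+ against CD142+ cells Abcc9 gave -0.94 ± 0.17 (adjusted p = 8.05e-07). Cspg4 was not called in any comparison. Des and Higd1b were lowest in CD142+ cells, without a call against DPP4+ cells, and Kcnj8 was lowest in ICAM1+ cells. The part of mural RNA in the differences of Epha4, Ephb2, Unc5b and Slit3 was not tested.

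Of 11 listed receptors, relay genes and proteases of reelin, none was called higher and 4 were called lower in ICAM1+ against DPP4+ cells, 1 was higher and 2 were lower in CD142+ against DPP4+ cells, and 3 were lower and none higher in ICAM1+ against CD142+ cells. Since 12.4% and 3.77% of all genes were called higher in ICAM1+ cells against DPP4+ and CD142+ cells, no call among 11 genes is near the background. The shares called lower were 12.0%, 8.91% and 5.28%, and 10.1% were higher in CD142+ against DPP4+ cells. Vldlr, a reelin receptor, stood at 616 normalised counts in DPP4+, 302 in ICAM1+ and 639 in CD142+ cells, and was lower in ICAM1+ than in DPP4+ cells (-1.03 ± 0.15, adjusted p = 2.95e-10) and than in CD142+ cells (-1.08 ± 0.15, adjusted p = 1.18e-10). Lrp8, the other reelin receptor, stood at 16.0 normalised counts in DPP4+, 19.8 in ICAM1+ and 17.7 in CD142+ cells and gave no call. Dab1, the adaptor that both receptors use, was low, at 4.65 normalised counts in DPP4+, 4.22 in ICAM1+ and 0.520 in CD142+ cells, and gave no call. Its log2 fold change in CD142+ against DPP4+ cells was -3.16 ± 1.55 (adjusted p = 0.157), and it had no adjusted p in ICAM1+ against CD142+ cells. Adamts3, a protease that cuts reelin, was above DPP4+ cells in CD142+ cells (1.49 ± 0.39, adjusted p = 0.00110), and ICAM1+ cells were below CD142+ cells (-1.19 ± 0.38, adjusted p = 0.0235).

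Per kilobase of exon, levels can be set side by side between genes, and the make-up of each family differed between populations. The 6 EphA genes in the tables summed to 107 normalised counts per kilobase in DPP4+, 173 in ICAM1+ and 295 in CD142+ cells, and Epha3 held 37.0%, 31.6% and 60.5% of those sums. The 5 EphB genes summed to 142, 205 and 261, with Ephb4 holding 62.3%, 53.9% and 39.5%. The A-type ephrins summed to 171, 79.5 and 102 per kilobase, led by Efna5 in DPP4+ cells (69.9%) and by Efna2 in ICAM1+ (46.3%) and CD142+ cells (34.7%). The B-type ephrins summed to 327, 215 and 203, and Efnb1 replaced Efnb2 as the leading gene outside DPP4+ cells.

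Slit3 held 98.2% to 99.3% of the Slit sums of 271, 462 and 751 normalised counts per kilobase in DPP4+, ICAM1+ and CD142+ cells. The Robo sums ran the other way, at 60.2, 49.3 and 28.3, and Robo1 led in DPP4+ cells (54.2%) while Robo4 led in ICAM1+ (67.5%) and CD142+ cells (54.8%). Netrins summed to 712, 234 and 637, of which Ntn1 held 81.0%, 88.1% and 91.2%. Neo1, the UNC5 genes and the RGM genes together summed to 397, 230 and 268, led by Neo1 in DPP4+ (69.5%) and ICAM1+ cells (41.3%) and by Unc5b in CD142+ cells (33.6%). With the longest transcript in place of all exons, 3 leading genes changed, all in CD142+ cells: Efna1 led the A-type ephrins, Robo1 the Robo genes and Neo1 the last group. These sums carry no test.

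**Figure D4:**
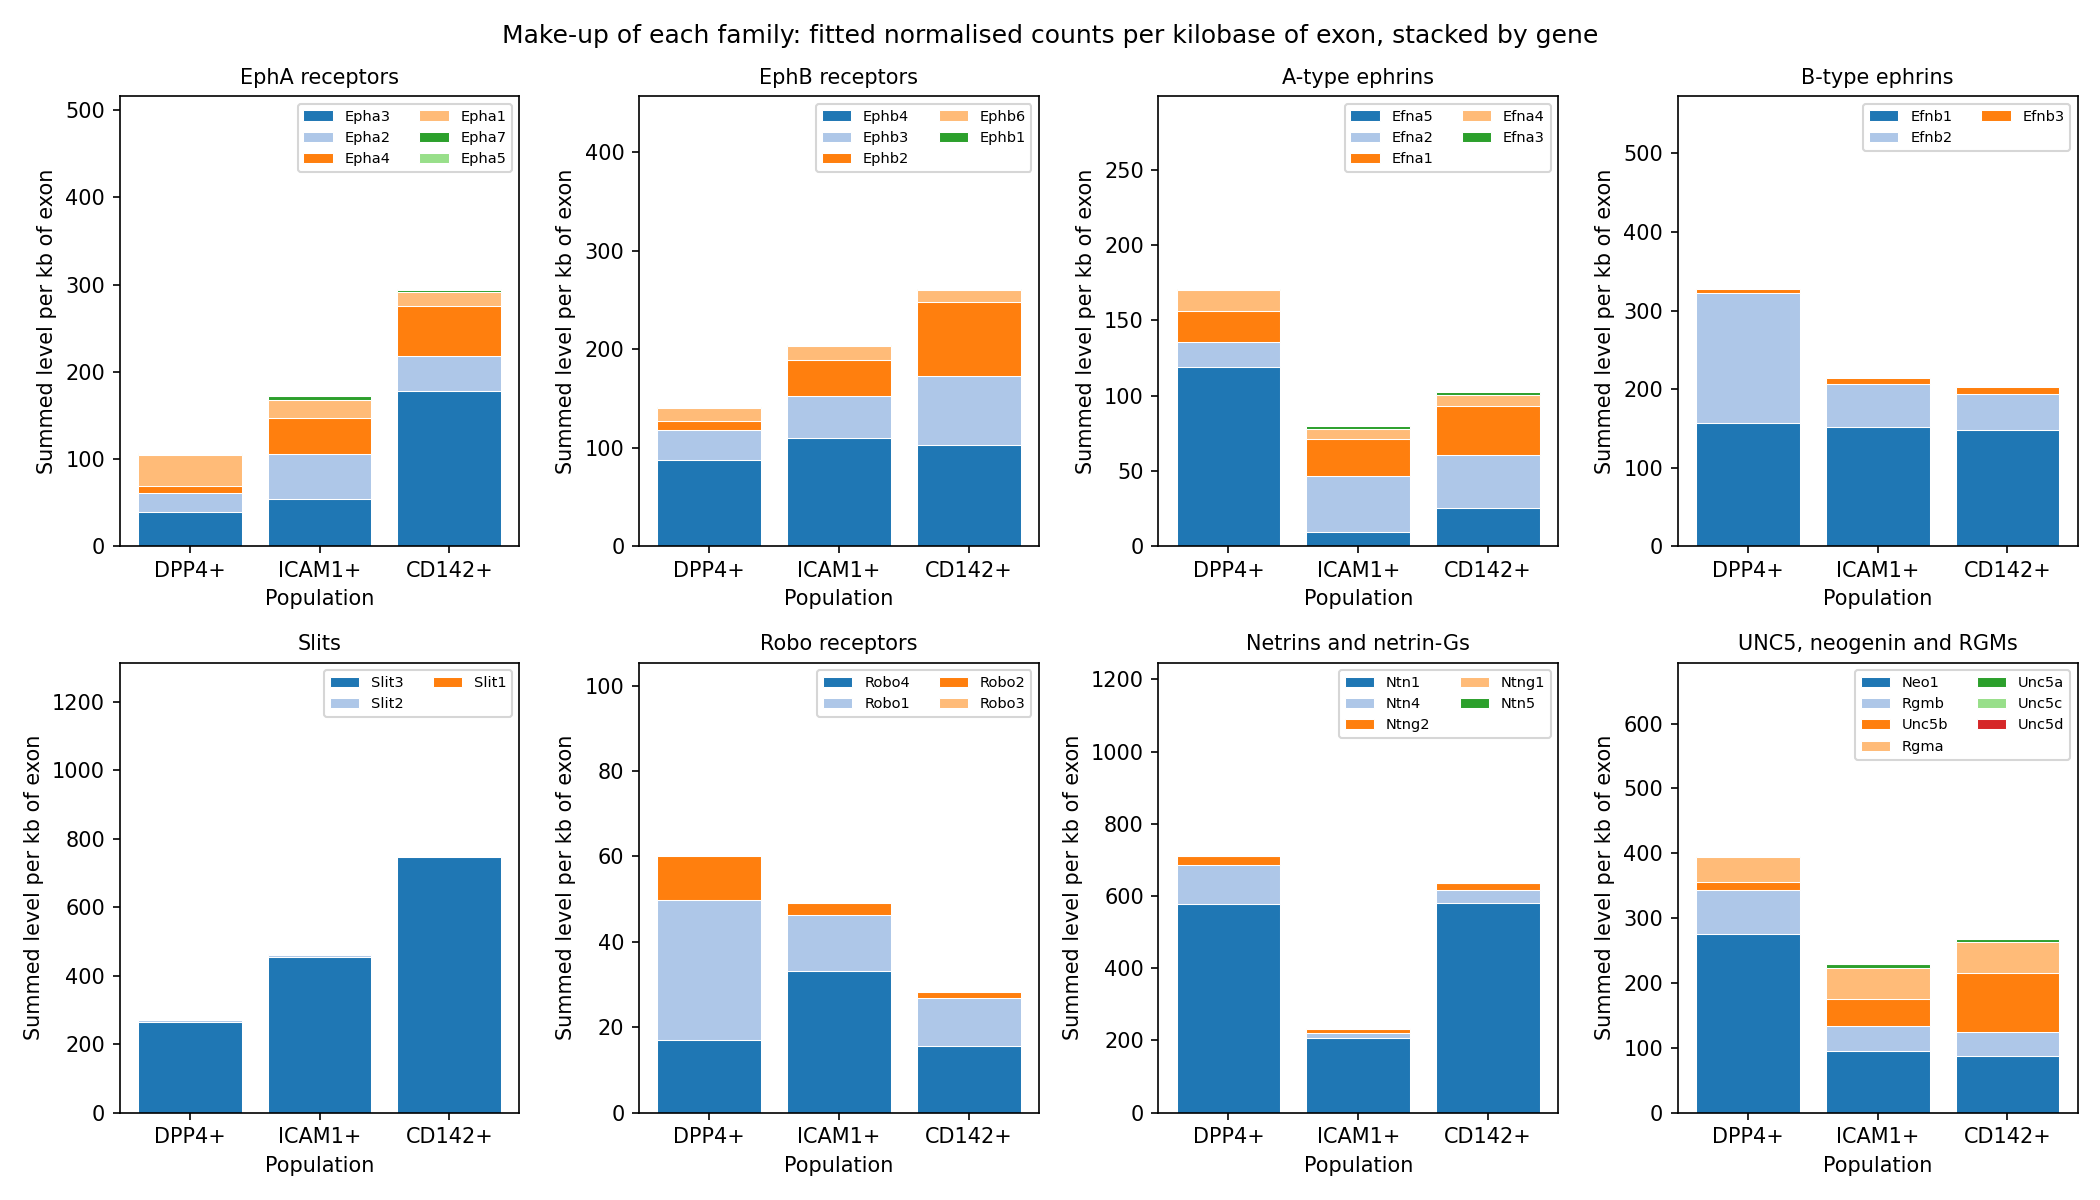
Summed fitted level of each family (vertical axis, normalised counts per kilobase of exon) in the 3 populations, stacked by gene. EphA, EphB and Slit sums rise from DPP4+ to ICAM1+ to CD142+ cells, the Robo sums decrease in that order, and the netrin sum is lowest in ICAM1+ cells at 234.

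The plot of family sums leaves 9 genes almost out of sight, since their means were below 10 normalised counts: Efna3, Epha5, Ephb1, Ntn5, Ntng1, Robo3, Slit1, Unc5c and Unc5d. Their means ran from 1.13 for Ntn5 to 8.37 for Unc5c, and none passed in any comparison. Ntn5 and Robo3 had no adjusted p in any comparison. The errors were wide, with an SE of 0.81 for Ephb1 and 1.51 for Efna3 on the log2 scale in ICAM1+ against DPP4+ cells. For Efna3 the log2 fold change of 2.54 ± 1.51 had an interval of -0.42 to 5.50, so a difference could not be detected at this level. The other 9 genes without a call (Efna1, Efna4, Efnb1, Efnb3, Ephb4, Ephb6, Rgma, Slit2 and Unc5a) had means of at least 10.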

How the data were processed

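RNA of cells sorted from mouse white fat was sequenced after enrichment with oligo(dT) beads, with 9 libraries in 3 populations, each grouped by the cell population of its label. Per the submitters' processing notes, STAR 2.5.2a, the mm10 build, DESeq2 and R 3.5.1 were used, and the annotation release, the strand setting and the treatment of reads that map to several genes are not given in the sources used here. Paralogs among the guidance genes could share such reads. The 3 deposited tables hold, for 20659 rows, the authors' DESeq2 results for each pair of populations: the mean signal over all libraries in normalised counts, the log2 fold change with its standard error, the Wald score, the p-value and the Benjamini-Hochberg adjusted p-value. Counts and values of single libraries were not used here, so depth per library is unknown and no interval from counting could be given. The 4 rows of read classes that name no gene were left out, which leaves 20655 genes, and 20618 of them received a symbol by Ensembl identifier.

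The deposited fold changes, errors and adjusted p-values were used as the main test, with a gene called at an adjusted p below 0.05. The fold changes of the 3 tables close within 0.01 for 20612 genes. From the mean and 2 fold changes the level of each population was solved, assuming equal weight of the 3 libraries, and its error was split from the 3 standard errors as if populations were independent. Intervals (95%) are the fold change plus and minus the normal quantile times its error. Levels per kilobase used the union of exons in GENCODE M21 (34 of the 39 members have the same gene version there), and coordinates are from that annotation on GRCm38. Promoter windows came from RefSeq (GRCm38.p6), where 38 of the 39 member symbols had an entry. Python 3.11.15, numpy 2.4.6, pandas 2.3.3, scipy 1.17.1 and matplotlib 3.10.9 were used, and the steps were tested on simulated data.

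All members are accounted for. A member is described with values where its mean was at least 10 or where it was called, the others are given by number and range, and fullest values went to the called members of each family with the largest changes. The members, marker lists and pathway lists were chosen with earlier results of these data known. Alternatives were the adjustment of p over other gene sets, a minimum fold change, a Wald test with a null of 1 on the log2 scale, re-centred fold changes, levels from other contrasts and another gene length.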

Additional observations from a re-analysis of the deposited data

How the results depend on the processing

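No paired analysis was possible because the tables hold no value for a single library, and leaving out a library could not be done for the same reason. With an absolute log2 fold change of at least 1 required, the guidance genes higher in ICAM1+ than in DPP4+ cells came to 7 and those lower in ICAM1+ than in CD142+ cells to 6. With a Wald test with a null of 1 on the log2 scale, which by construction asks for a larger change, 3 were higher and 6 lower in ICAM1+ against DPP4+ cells, 5 higher and 4 lower in CD142+ against DPP4+ cells, and 1 higher and 2 lower in ICAM1+ against CD142+ cells. With p-values adjusted over genes at a mean of 100 or more, where fewer genes are tested, 1 was higher in ICAM1+ than in CD142+ cells. Reln and Robo2, with means of 84.6 and 81.7, fell below that limit and were not tested at this setting. The shares of all genes called at the settings above were not computed. These counts therefore have no background beside them and show only how the calls among the members depend on the setting. Re-centring took off medians of -0.07, -0.05 and -0.02 in the 3 comparisons and turned 2 uncalled values near 0, Efnb1 to 0.0198 in ICAM1+ against DPP4+ cells and Ephb6 to 0.0033 in CD142+ against DPP4+ cells. It also brought Ephb4 (adjusted p = 0.0471) and Slit2 (adjusted p = 0.0354) past the threshold in ICAM1+ against DPP4+ cells, and lost Ntng2 in ICAM1+ against CD142+ cells (adjusted p = 0.0529). Slit2 passed as well with p-values adjusted over the same genes (adjusted p = 0.0485). Levels computed from the contrasts with ICAM1+ cells kept the order of populations for 30 of 30 genes. This outcome was fixed in advance, since the fold changes of the members close and both routes give the same levels. With the longest transcript as gene length, 42 of 90 levels per kilobase moved by more than the implied spread between libraries. The depth of the libraries is unknown, and genes with means below 10 could not be resolved.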
